A study of Mus musculus with 12 samples.

Results

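The 10 genes described here are the MYC dimerization network and the PIM kinases of mouse neutrophils: Myc, its obligate partner Max, the rival MAX partners Mxd1, Mxd4, Mxi1 and Mnt, the MAX-like gene Mlx, and the kinase genes Pim1, Pim2 and Pim3. They were taken by gene name and are 10 of the 13935 rows of the expression table; all 10 were among the 13915 rows tested. RNA was sequenced from neutrophils flow sorted from femoral bone marrow by CD45, CD11b and Ly6G, then cultured for 8 h in RPMI medium with 10% FBS, with mouse recombinant G-CSF at 10 ng/ml or without it. Granulocyte colony-stimulating factor (G-CSF) is the main cytokine of neutrophil production. There were 4 groups of 3 libraries: LysMcre Socs3fl/fl with G-CSF, Socs3fl/fl with G-CSF, LysMcre Socs3fl/fl untreated and Socs3fl/fl untreated, called LysMcre and floxed below. Both genotypes carry the floxed Socs3 alleles. In LysMcre mice a Cre recombinase placed in the lysozyme 2 locus is meant to delete Socs3, a feedback inhibitor of cytokine signalling, in cells that use this locus, which include neutrophils and macrophages. The labels do not give age or sex, nor whether replicate libraries are separate mice; p-values reflect only the variation among the libraries sequenced, some or all of which may be technical.

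MYC is a transcription factor that binds the DNA sequence CACGTG, the E-box, as a dimer with MAX and raises genes of ribosome production, nucleotide synthesis and growth. MXD1, MXD4, MXI1 and MNT bind the same sequence with MAX and recruit repressors, and MXD1 is known to be raised as granulocytes mature. MLX can pair with MXD1, MXD4 or MNT too, or instead with glucose-sensing partners. PIM kinases are active as soon as they are made, so their amount is set largely by transcription, which STAT3 and STAT5 downstream of cytokine receptors drive, and they act on survival, translation and MYC stability.

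The start regions of these genes are shown because MYC network proteins bind E-boxes and STAT proteins bind the spaced palindrome TTCNNNGAA. RefSeq promoter windows of the GRCm38.p6 assembly, 250 bases before to 50 bases after a start site, were found for 9 of the 10 genes, all but Myc, in 12 windows. The letters CACGTG, which read the same on both strands, stood in 5 of the 12 windows, from 5 genes. The same letters stood in 7.15% of all 32851 mouse windows and in 9.86% of the 12150 windows of tested genes. In the stretches below, written 5′ to 3′ on the gene's strand, capitals mark CACGTG.

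Max, chr12:76962225-76962272, minus strand: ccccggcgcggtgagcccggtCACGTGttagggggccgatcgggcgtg
Mxd4, chr5:34187903-34187950, minus strand: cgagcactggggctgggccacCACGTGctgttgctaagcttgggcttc
Mnt, chr11:74830780-74830827, plus strand: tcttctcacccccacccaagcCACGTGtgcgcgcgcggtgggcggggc
Mlx, chr11:101087229-101087276, plus strand: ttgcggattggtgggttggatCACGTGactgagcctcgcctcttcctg
Pim1 internal start, chr17:29493006-29493053, plus strand: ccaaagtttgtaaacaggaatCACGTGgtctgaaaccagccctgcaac

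The first base of the E-box stood at position -3 from the RefSeq start in Max, -40 in Mlx, -123 in Mnt and -219 in Mxd4. The bases after this Max start were not in a GENCODE M21 transcript. In that annotation Max begins further downstream, at 76962201, so the position of its E-box depends on the annotation. In Pim1 it stood at -58 of a second RefSeq start inside the gene and not in the window of the first start. The windows of Mxd1, Mxi1, Pim2 and Pim3 did not hold these letters. TTCNNNGAA, also the same on both strands, was in 0 of the 12 windows, against 6.95% of the windows of tested genes; this says only that these letters are not in these windows. The whole windows of Pim1 (first start) and Mxd1 follow, since these were the members with the highest levels after G-CSF; neither window holds CACGTG or TTCNNNGAA, so neither has capitals.

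Pim1, chr17:29490535-29490834, plus strand: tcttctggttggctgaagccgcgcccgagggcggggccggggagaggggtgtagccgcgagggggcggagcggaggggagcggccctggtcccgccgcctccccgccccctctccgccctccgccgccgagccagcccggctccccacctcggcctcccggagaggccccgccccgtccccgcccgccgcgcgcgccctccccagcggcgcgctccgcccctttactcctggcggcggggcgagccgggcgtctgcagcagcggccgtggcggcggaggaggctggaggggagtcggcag
Mxd1, chr6:86669110-86669409, minus strand: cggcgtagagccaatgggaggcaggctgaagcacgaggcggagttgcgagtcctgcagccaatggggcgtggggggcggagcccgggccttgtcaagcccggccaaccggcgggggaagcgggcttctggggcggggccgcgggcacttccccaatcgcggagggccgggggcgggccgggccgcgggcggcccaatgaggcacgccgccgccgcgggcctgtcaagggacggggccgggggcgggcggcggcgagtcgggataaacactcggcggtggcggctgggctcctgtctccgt

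Values are the authors' normalized counts, read counts divided by 1 size factor per library. Library depth was 19495754 to 26472118 recovered reads, at which 3 reads were worth 2.57 to 3.54 normalized counts, so every member stood well above the counting floor. The targeted gene did not follow the genotype label: Socs3 averaged 37335 ± 1219 normalized counts in LysMcre and 19504 ± 1635 in floxed libraries with G-CSF, and 292 ± 34.5 in LysMcre and 225 ± 23.1 in floxed untreated libraries (SD, n = 3 each). Gene-level counts carry no information on exons, so they do not report on the deletion. Lyz2, the gene of the Cre locus, averaged 569 in LysMcre and 46227 in floxed libraries with G-CSF, and 6053 in LysMcre and 222593 in floxed untreated libraries. Lyz2 did follow the genotype label, with every LysMcre library below every floxed library. As the counts do not show the Socs3 deletion itself, each direction between genotypes below is between the libraries labelled LysMcre and those labelled floxed. The titles of the 3 LysMcre libraries with G-CSF contain both G-CSF and the word untreated, and these libraries were placed by their descriptions, which name G-CSF, as the labelled condition does. All 9 neutrophil markers were present in every group, with sums per library of 1171585 to 1864721 normalized counts. Markers of other cell types were present in every group too. Their sums were 6737 to 17653 for B cells, 14068 to 23289 for monocytes and macrophages, and 1448 to 3459 for eosinophils, basophils and mast cells. They were 115 to 440 for T and NK cells and 172 to 1448 for erythroid cells. Which cells the RNA of low members such as Myc, Pim2 and Pim3 came from was not tested. In these bulk samples, fewer cells of a type and less RNA per cell cannot be told apart.

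To set the genes side by side, levels were divided by exon length in GENCODE M21. This length merges the exons of all annotated transcripts of a gene and can exceed that of the RNA present. The order of genes, the shares and the ratios per kb below depend on it. Without G-CSF the RNA of the MAX network was dominated by Mxd1, at 3929 ± 159 normalized counts per kb in LysMcre and 4196 ± 330 in floxed libraries, with Max next at 2102 ± 96.9 and 2234 ± 46.1 (SD, n = 3 each). Myc was the lowest of the 10 genes in the untreated groups, at 28.9 ± 3.13 per kb in LysMcre and 23.9 ± 3.34 in floxed libraries, below Pim2 and Pim3. With G-CSF the order changed. In LysMcre libraries Pim1 was highest at 8808 ± 855 per kb, above Mxd1 at 6707 ± 516, and in floxed libraries Mxd1, at 7012 ± 401, stayed above Pim1, at 5838 ± 496. In each of these pairs the libraries of the neighbouring genes did not overlap. Myc moved up to 125 ± 13.9 per kb in LysMcre libraries with G-CSF, where it overlapped with Mxd4 at 123 ± 3.42, and to 94.3 ± 9.53 in floxed libraries with G-CSF, still below Mxd4 at 181 ± 15.3. Pim2 and Pim3 were the lowest members in both groups with G-CSF, between 45.4 and 80.1 per kb.

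**Figure D1:**
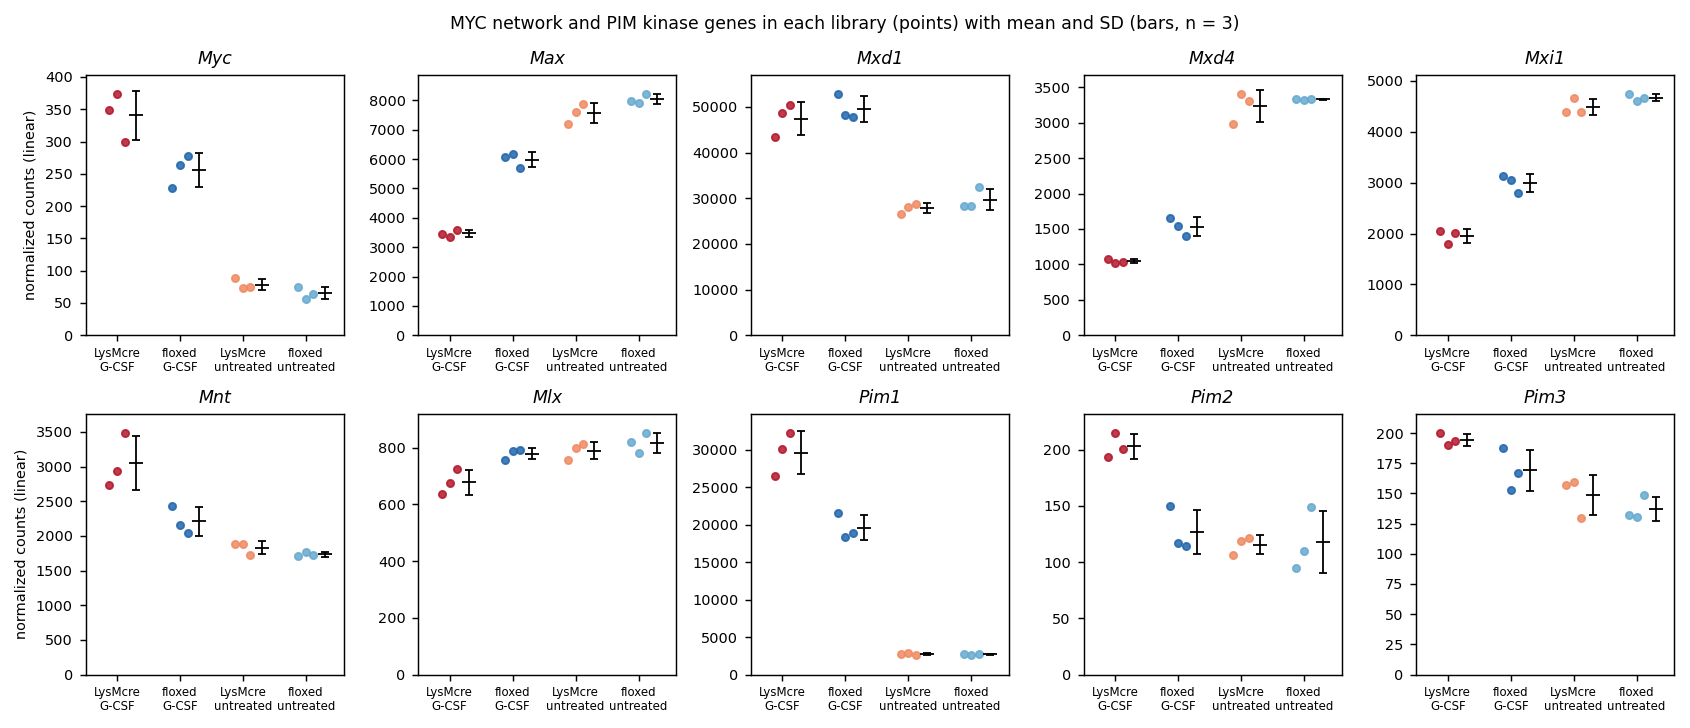
Normalized counts (linear axis from 0) of the 10 genes in each of the 12 libraries, as points, with the mean and SD (n = 3) as a bar beside each group. Myc and Pim1 are highest in LysMcre libraries with G-CSF (means of 340.8 and 29612.5), while Max, Mxd4 and Mxi1 are lowest there (3466, 1042 and 1948).

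G-CSF changed all 10 genes in LysMcre libraries and 8 of 10 in floxed libraries (limma, Benjamini-Hochberg adjusted p under 0.05). In LysMcre libraries 6 rose and 4 fell, where 31.1% of all tested genes rose, 31.6% fell and 62.6% were called in either direction. In floxed libraries 5 rose and 3 fell, against 24.1%, 24.6% and 48.8% of all tested genes. Myc, Mxd1, Mnt, Pim1 and Pim3 rose and Max, Mxd4 and Mxi1 fell in both genotypes. Pim2 rose and Mlx fell in LysMcre libraries and did not pass in floxed libraries. The interaction called a difference of responses for Pim2 (limma adjusted p = 0.0365) and not for Mlx (0.286). Both outcomes changed with equal library totals, to 0.0889 for Pim2 and 0.0139 for Mlx. The median log2 change of the 10 genes was 0.56 in LysMcre and 0.21 in floxed libraries, with a median near 0 over all genes tested in each.

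Myc (ENSMUSG00000022346.15, mm10 chr15:61985391-61990374, plus strand) had 349, 374 and 299.5 normalized counts in LysMcre libraries with G-CSF and 227, 264 and 278 in floxed libraries with G-CSF. It had 88.3, 73.1 and 74.3 in LysMcre and 74.6, 56.5 and 64.0 in floxed untreated libraries. Every library with G-CSF lay far above every untreated library. The rise was 4.29-fold in LysMcre (log2 2.10, SE 0.14, limma adjusted p = 1.94e-09) and 3.91-fold in floxed libraries (log2 1.97, SE 0.14, limma adjusted p = 9.24e-09).

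Max (ENSMUSG00000059436.13, chr12:76937269-76962201, minus strand), the partner that MYC needs to bind DNA, went the other way. It had 3449.9, 3360.2 and 3589 normalized counts in LysMcre and 6064, 6187 and 5703 in floxed libraries with G-CSF. Untreated LysMcre libraries had 7189, 7618 and 7879.8, and untreated floxed libraries 7990.3, 7899 and 8221. The 4 groups did not overlap, and the LysMcre libraries with G-CSF were the lowest by a wide margin. With G-CSF Max was 2.18-fold lower in LysMcre (log2 -1.12, SE 0.05, limma adjusted p = 3.95e-11) and 1.34-fold lower in floxed libraries (log2 -0.43, SE 0.05, limma adjusted p = 5.86e-06).

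The rival partners of MAX split. Mxd1 (ENSMUSG00000001156.9, chr6:86647042-86669161, minus strand), a repressor of E-box genes, had 43357, 48554 and 50389 normalized counts in LysMcre and 52855.5, 48149.9 and 47756.5 in floxed libraries with G-CSF. Untreated LysMcre libraries had 26573, 28007 and 28783, and untreated floxed libraries 28311, 28344 and 32367. The genotypes overlapped in each condition, and every library with G-CSF lay above every untreated one. The rise was 1.70-fold in LysMcre (log2 0.77, SE 0.08, limma adjusted p = 3.28e-07) and 1.67-fold in floxed libraries (log2 0.74, SE 0.08, limma adjusted p = 8.92e-07). The size depended on the scaling: with quantile normalization the log2 rise was 0.29 in LysMcre (limma adjusted p = 9.13e-05) and 0.44 in floxed libraries (limma adjusted p = 2.19e-06), and with equal totals it was 0.51 in LysMcre libraries. A second annotated transcript on the same strand, Gm44292, lies within Mxd1 and averaged 287 normalized counts in LysMcre and 243 in floxed libraries with G-CSF, and 122 in LysMcre and 125 in floxed untreated libraries, so reads may have been split between the pair.

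Mxd4 (ENSMUSG00000037235.13, chr5:34173883-34187720, minus strand), a second MXD repressor, had 1074, 1017 and 1036 normalized counts in LysMcre and 1657, 1548 and 1399 in floxed libraries with G-CSF, against 2987, 3408 and 3311 in LysMcre and 3341, 3320.3 and 3332 in floxed untreated libraries. The genotypes were apart with G-CSF and overlapped without it. Mxd4 was 3.10-fold lower with G-CSF in LysMcre (log2 -1.63, SE 0.07, limma adjusted p = 6.93e-12) and 2.17-fold lower in floxed libraries (log2 -1.12, SE 0.07, limma adjusted p = 1.4e-09). Mxi1 (ENSMUSG00000025025.14, chr19:53310518-53375810, plus strand), the MXD2 repressor, had 2043, 1786 and 2014 normalized counts in LysMcre and 3124, 3059 and 2802 in floxed libraries with G-CSF. Its untreated values were 4391, 4664 and 4397 in LysMcre and 4747, 4603 and 4659 in floxed libraries. Like Mxd4 it formed 3 levels, lowest in LysMcre with G-CSF, with the untreated genotypes overlapping. The fall was 2.30-fold in LysMcre (log2 -1.20, SE 0.06, limma adjusted p = 9.76e-11) and 1.56-fold in floxed libraries (log2 -0.64, SE 0.06, limma adjusted p = 3.2e-07).

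Mnt (ENSMUSG00000000282.12, chr11:74830920-74845725, plus strand), a MAX partner that represses MYC targets in most cell types, had 2729.9, 2943 and 3483 normalized counts in LysMcre and 2435, 2157 and 2037 in floxed libraries with G-CSF, against 1881, 1889 and 1719.5 in LysMcre and 1709.5, 1771 and 1719 in floxed untreated libraries. It rose with G-CSF in both genotypes, 1.66-fold in LysMcre (log2 0.73, SE 0.08, limma adjusted p = 1.57e-06) and 1.27-fold in floxed libraries (log2 0.35, SE 0.08, limma adjusted p = 0.00277); with equal totals the LysMcre rise was a log2 of 0.47. Mlx (ENSMUSG00000017801.15, chr11:101087277-101092207, plus strand) moved least of the network, with 636, 677 and 724 normalized counts in LysMcre and 756, 788 and 792 in floxed libraries with G-CSF, and 756, 799 and 814 in LysMcre and 819.6, 782 and 852 in floxed untreated libraries. Only the LysMcre libraries with G-CSF stood apart from the other 3 groups, below them. Mlx was 1.16-fold lower with G-CSF in LysMcre libraries (log2 -0.22, SE 0.06, limma adjusted p = 0.0074), and in floxed libraries the log2 difference was -0.07 (95% interval -0.21 to 0.07, limma adjusted p = 0.396). With library totals made equal, the LysMcre difference was a log2 of -0.48 and the floxed difference also passed (log2 -0.16, limma adjusted p = 0.041). Mlx overlaps Psmc3ip on the opposite strand, which averaged 40.5 normalized counts or less in each group.

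Among the kinases, Pim1 (ENSMUSG00000024014.8, chr17:29490753-29496112, plus strand) had the largest response of the 10 genes. It had 26537, 30065 and 32235 normalized counts in LysMcre and 21529, 18405 and 18951 in floxed libraries with G-CSF, against 2769, 2859 and 2618 in LysMcre and 2732, 2643 and 2689 in floxed untreated libraries. The untreated genotypes overlapped, and with G-CSF every LysMcre library lay above every floxed one. The rise was 10.7-fold in LysMcre (log2 3.43, SE 0.07, limma adjusted p = 7.37e-15) and 7.28-fold in floxed libraries (log2 2.86, SE 0.07, limma adjusted p = 1.39e-13). The antisense transcript Gm26885 overlaps Pim1 and averaged 549 in LysMcre and 287 in floxed libraries with G-CSF, and 38.6 in LysMcre and 30.8 in floxed untreated libraries. No source used here gives the strand setting of the counting, and without it reads of this pair cannot be told apart.

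Pim2 (ENSMUSG00000031155.16, chrX:7878262-7883432, plus strand), a kinase with substrates much like those of PIM1, was far lower, with 193, 215 and 201 normalized counts in LysMcre and 149, 117 and 114 in floxed libraries with G-CSF. Untreated libraries had 106, 119 and 122 in LysMcre and 94.9, 109.6 and 149 in floxed cells. The LysMcre libraries with G-CSF stood above all others, which overlapped. Pim2 rose 1.75-fold with G-CSF in LysMcre libraries (log2 0.81, SE 0.16, limma adjusted p = 0.000314), and in floxed libraries the log2 difference was 0.12 (95% interval -0.21 to 0.45, limma adjusted p = 0.554).

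Pim3 (ENSMUSG00000035828.11, chr15:88862186-88865726, plus strand), the third kinase, had 199.9, 189.9 and 193 normalized counts in LysMcre and 187, 153 and 167 in floxed libraries with G-CSF, against 157, 159.9 and 129.98 in LysMcre and 132, 130.2 and 149 in floxed untreated libraries. The groups with G-CSF stood above the untreated group of the same genotype without overlap. It rose 1.31-fold in LysMcre (log2 0.39, SE 0.11, limma adjusted p = 0.00778) and 1.23-fold in floxed libraries (log2 0.30, SE 0.11, limma adjusted p = 0.0414). With library totals made equal neither rise passed (limma adjusted p = 0.35 in LysMcre and 0.16 in floxed libraries). The floxed rise was also lost without floxed untreated library 1 (limma adjusted p = 0.108) or 2 (0.122), without floxed G-CSF library 1 (0.156) or 3 (0.074), and without LysMcre G-CSF library 2 (0.0519) or 3 (0.0501). DESeq2 gave it an adjusted p of 0.0807, quantile normalization in limma 0.0813, and a limma fit to the 2 floxed groups alone 0.0655.

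**Figure D2:**
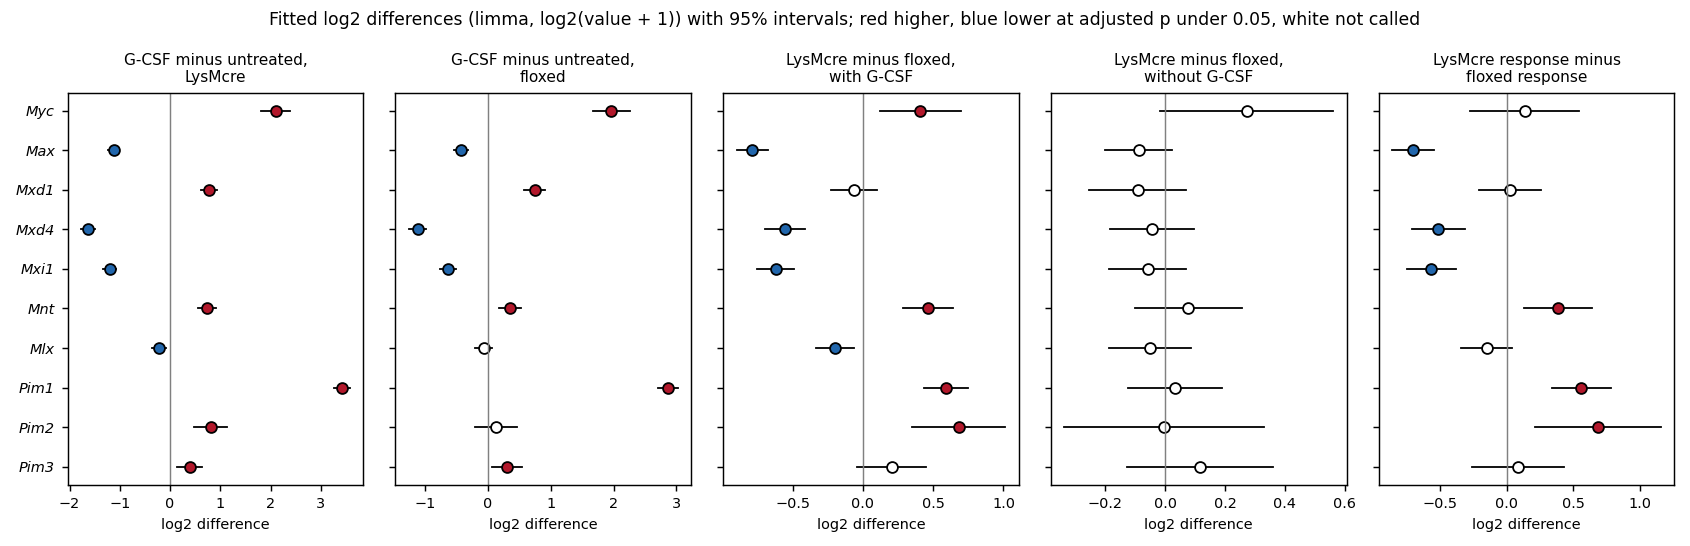
Fitted log2 differences (limma on log2(normalized count + 1), x axis) with 95% intervals for the 10 genes in 5 comparisons, red where higher and blue where lower at an adjusted p under 0.05 and white where not called. Pim1 has the largest G-CSF rise (3.43 in LysMcre and 2.86 in floxed libraries) and Mxd4 the largest fall (-1.63 and -1.12), and no gene is called between the untreated genotypes.

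These opposite changes altered the proportions within the network. Per kb of exon, Myc made up 1.60% ± 0.249 of the summed RNA of the 5 MAX partners (Myc, Mxd1, Mxd4, Mxi1 and Mnt) in LysMcre and 1.16% ± 0.177 in floxed libraries with G-CSF, and 0.538% ± 0.0766 in LysMcre and 0.423% ± 0.0669 in floxed untreated libraries (SD, n = 3 each). Mxd1 remained the bulk of this sum in every library, at 84.9% ± 0.672 in LysMcre and 85.5% ± 0.362 in floxed libraries with G-CSF, and 72.9% ± 0.947 in LysMcre and 73.9% ± 1.53 in floxed untreated libraries. Mxi1 took a smaller share with G-CSF, 3.63% in LysMcre and 5.35% in floxed libraries with G-CSF, and 12.2% in LysMcre and 12.1% in floxed untreated libraries. The ratio of Mxd1 to Myc was 54.1 ± 9.20 in LysMcre and 75.2 ± 12.4 in floxed libraries with G-CSF, against 137 ± 18.8 in LysMcre and 178 ± 27.5 in floxed untreated libraries, so Mxd1 RNA exceeded Myc RNA throughout.

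The balance between Max and its partners also moved. The summed partners per kb stood at 8.20 ± 0.537 times Max in LysMcre and 4.93 ± 0.266 times Max in floxed libraries with G-CSF, and at 2.57 ± 0.0467 times in LysMcre and 2.54 ± 0.0950 times in floxed untreated libraries. The ratio of Myc to Max was 0.131 ± 0.0186 in LysMcre and 0.0569 ± 0.00742 in floxed libraries with G-CSF, and 0.0138 ± 0.00213 in LysMcre and 0.0107 ± 0.00149 in floxed untreated libraries. Of the summed Pim RNA per kb, Pim1 was 98.3% in LysMcre and 98.1% in floxed libraries with G-CSF, and 88.8% in LysMcre and 89.0% in floxed untreated libraries. These ratios are of RNA within a library, so 1 scaling factor per library leaves them as they are, but quantile normalization does not; they were not tested.

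**Figure D3:**
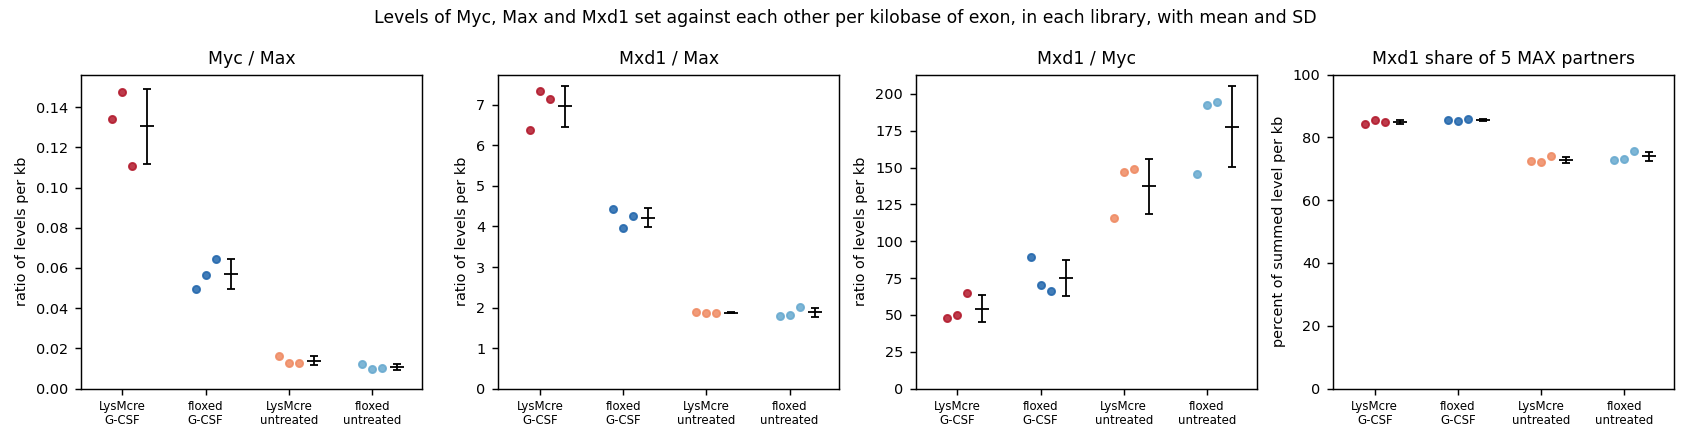
Ratios of Myc to Max, Mxd1 to Max and Mxd1 to Myc, and the percent share of Mxd1 in 5 MAX partners, all from levels per kb of exon, in each library (points) with mean and SD (n = 3). Myc to Max is highest in LysMcre libraries with G-CSF (0.131) and lowest in floxed untreated libraries (0.0107), while Mxd1 stays above 72% of the partner RNA in every library.

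The comparison of the genotypes with G-CSF asks what differs between LysMcre and floxed libraries of stimulated cells. The labelled Socs3 deletion, the Cre insertion and the lower Lyz2 RNA come together in LysMcre libraries and cannot be told apart. Of the 10 genes, 4 were higher in LysMcre libraries (Myc, Mnt, Pim1 and Pim2), 4 were lower (Max, Mxd4, Mxi1 and Mlx), and Mxd1 and Pim3 did not pass; over all tested genes 17.1% were higher, 18.9% lower and 36% called in either direction. Pim2 was 1.60-fold higher (log2 0.68, SE 0.16, limma adjusted p = 0.00287), Pim1 1.51-fold higher (log2 0.59, SE 0.07, limma adjusted p = 1.31e-05) and Mnt 1.38-fold higher (log2 0.46, SE 0.08, limma adjusted p = 0.000454). Max was 1.73-fold lower (log2 -0.79, SE 0.05, limma adjusted p = 2.46e-08), Mxi1 1.54-fold lower (log2 -0.62, SE 0.06, limma adjusted p = 1.21e-06) and Mxd4 1.47-fold lower (log2 -0.55, SE 0.07, limma adjusted p = 8.1e-06).

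Myc and Mlx stood nearer the threshold. Myc averaged 340.8 ± 37.8 normalized counts in LysMcre and 256.3 ± 25.9 in floxed libraries with G-CSF (SD, n = 3 each), 1.33-fold higher without overlap (log2 0.41, SE 0.14, limma adjusted p = 0.0281). The call was lost with equal library totals (log2 0.29, limma adjusted p = 0.14), without floxed G-CSF library 1 (0.115) or 2 (0.0543), and without LysMcre G-CSF library 1 (0.074) or 2 (0.117). Mlx averaged 679 ± 44.0 in LysMcre and 779 ± 19.6 in floxed libraries (log2 -0.20, SE 0.06, limma adjusted p = 0.0238; log2 -0.32 with equal totals). Its call was lost in a limma fit to the 2 groups alone (adjusted p = 0.0594), without floxed G-CSF library 2 (0.0675) or 3 (0.065), and without LysMcre G-CSF library 1 (0.0939) or 2 (0.0592). Mxd1 differed by a log2 of -0.07 (95% interval -0.23 to 0.10, limma adjusted p = 0.551), but was called lower in LysMcre libraries after quantile normalization (log2 -0.18, limma adjusted p = 0.00968) and with equal totals (log2 -0.18, limma adjusted p = 0.0199). Pim3 differed by 0.20 (95% interval -0.04 to 0.45, limma adjusted p = 0.185), with all 3 LysMcre libraries above all 3 floxed ones.

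The difference of the responses themselves was tested as an interaction, LysMcre response minus floxed response, which called 22.4% of all genes (10.9% higher, 11.5% lower). Of the 10 genes, 3 fell more strongly in LysMcre cells: Max (log2 difference of responses -0.70, SE 0.07, limma adjusted p = 7.7e-06), Mxi1 (-0.56, SE 0.09, limma adjusted p = 0.000209) and Mxd4 (-0.51, SE 0.09, limma adjusted p = 0.000857). A further 3 rose more strongly there: Pim1 (0.56, SE 0.10, limma adjusted p = 0.00103), Mnt (0.38, SE 0.12, limma adjusted p = 0.0289) and Pim2 (0.69, SE 0.22, limma adjusted p = 0.0365). For Myc the difference of responses was 0.14, with a 95% interval of -0.27 to 0.55 and a limma adjusted p of 0.689, so a larger or a smaller Myc response in LysMcre cells was not resolved. The differences for Mxd1 (0.03, 95% interval -0.20 to 0.26), Pim3 (0.09, -0.26 to 0.43) and Mlx (-0.15, -0.34 to 0.04) did not pass; that of Mlx did with equal totals (log2 -0.32, limma adjusted p = 0.0139).

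The larger responses of Mnt and Pim2 changed with single libraries. With equal totals the log2 difference of responses was 0.22 for Mnt (limma adjusted p = 0.135) and 0.52 for Pim2 (limma adjusted p = 0.0889). Mnt also lost its call without floxed untreated library 2 (limma adjusted p = 0.0616), LysMcre untreated library 3 (0.0707), floxed G-CSF library 2 (0.0645) or 3 (0.0728), or LysMcre G-CSF library 3 (0.0619). Pim2 lost it without floxed untreated library 3 (limma adjusted p = 0.0829), LysMcre untreated library 1 (0.0807) or 2 (0.0578), floxed G-CSF library 2 (0.0844) or 3 (0.0826), or LysMcre G-CSF library 2 (0.0832) or 3 (0.0622). Max, Mxd4, Mxi1 and Pim1 kept their calls under every alternative tried, in both genotype comparisons with G-CSF and in both responses.

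Before stimulation none of the 10 genes was called between the genotypes, where limma called 16 genes in all, 0.115% of those tested (0.0647% higher and 0.0503% lower), edgeR 13 and DESeq2 28, none of them a member. At an unadjusted p under 0.05 limma had 465 genes, and the lowest unadjusted p of a member was 0.0629, for Myc. Myc averaged 78.6 ± 8.49 normalized counts in LysMcre and 65.0 ± 9.08 in floxed libraries (SD, n = 3 each), a log2 difference of 0.27 with a 95% interval of -0.02 to 0.56. The other differences ran between -0.09 for Mxd1 and 0.12 for Pim3. The narrowest intervals were those of Max, -0.20 to 0.02, and Mxi1, -0.19 to 0.07; the widest was that of Pim2, -0.34 to 0.33.

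Genes that MYC is known to raise were higher with G-CSF wherever they were called. Of 29 tested genes of this list, 29 rose and 0 fell with G-CSF in LysMcre libraries (median log2 1.26). In floxed libraries 26 rose and 0 fell (median 0.77). Over all tested genes 31.1% rose in LysMcre and 24.1% in floxed libraries, with medians near 0. Srm, spermidine synthase, averaged 348 ± 46.1 normalized counts in LysMcre libraries with G-CSF and 49.0 ± 14.5 in untreated ones (log2 2.83, SE 0.22, limma adjusted p = 1.93e-08); in floxed libraries it averaged 235 ± 32.7 with G-CSF and 39.2 ± 11.0 untreated (log2 2.58, SE 0.22, limma adjusted p = 1.11e-07). Nop58, a core protein of the small nucleolar particles that modify ribosomal RNA, rose by a log2 of 2.31 in LysMcre and 1.58 in floxed libraries, and Gnl3, a nucleolar GTPase, by 2.28 in LysMcre and 1.56 in floxed libraries. Between the genotypes with G-CSF, 19 of the 29 were higher and 0 lower in LysMcre libraries (median log2 0.44), led by Ccnd2, cyclin D2, at 823 ± 67.3 in LysMcre and 314 ± 61.6 in floxed libraries (log2 1.40, SE 0.14, limma adjusted p = 1.85e-06). Pdk1, a kinase that holds back pyruvate dehydrogenase, was higher by a log2 of 0.91, and Odc1, ornithine decarboxylase, by 0.83. The interaction called 9 of the 29, all with the larger rise in LysMcre cells (median log2 0.36). Among the 9 were Ccnd2 at 1.13, Odc1 at 0.78 and Nop58 at 0.73. Over all tested genes 17.1% were called higher between the genotypes with G-CSF and 10.9% in the interaction. With equal library totals 10 of the 29 were called between the genotypes with G-CSF and 3 in the interaction, all higher. The letters CACGTG stood in the RefSeq windows of 9 of the 24 genes of this list that had one, 37.5%, against 11.7% of tested genes.

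The list of genes that MYC is known to repress together with MIZ1 did not move one way. Of 6 tested genes, 3 rose (Cdkn1a, Gadd45a and Itgb1) and 2 fell (Cebpa and Ndrg1) with G-CSF in LysMcre libraries. The same counts in the same direction were found in floxed libraries. Over all tested genes 31.1% rose and 31.6% fell in LysMcre, and 24.1% rose and 24.6% fell in floxed libraries. Cdkn1a, the cell cycle inhibitor p21, averaged 1102 ± 106 normalized counts in LysMcre and 361 ± 69.1 in floxed libraries with G-CSF (log2 1.62, SE 0.19, limma adjusted p = 6.97e-06), and 191 ± 61.0 in LysMcre and 165 ± 28.0 in floxed untreated libraries. Its response was larger in LysMcre cells by a log2 of 1.44 (SE 0.26, limma adjusted p = 0.000994). Cebpa, a transcription factor of granulocyte commitment, averaged 1207 ± 60.2 in LysMcre and 1691 ± 112 in floxed libraries with G-CSF (log2 -0.49, SE 0.08, limma adjusted p = 0.000292), against 4029.9 ± 416 in LysMcre and 3785 ± 369 in floxed untreated libraries.

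Other relatives and cofactors of MYC were called about as often as other genes, of which 62.6% were called in the LysMcre and 48.8% in the floxed response. Of 12 tested relatives, which include Mycn, Mga and the E-box binding MiT and USF factors, 5 rose and 4 fell in LysMcre and 2 rose and 4 fell in floxed libraries; with equal totals 1 rose and 6 fell in LysMcre and 0 rose and 4 fell in floxed libraries. Tfeb, a regulator of lysosomal genes, fell by a log2 of 0.65 in LysMcre (limma adjusted p = 5.73e-06) and 0.35 in floxed libraries (limma adjusted p = 0.00237). Between the genotypes with G-CSF, Mitf (log2 0.45) and Mga (0.35) were higher and Tfeb (-0.31) lower in LysMcre libraries, beside 17.1% and 18.9% of all genes. With equal totals 6 of the 12 were called, 1 of them higher. Over all 13915 genes 5471 were then called, of which 28.2% were higher. With equal totals the LysMcre responses of Mga (log2 -0.05) and Zbtb17 (-0.0043) had the opposite sign and did not pass. Of 21 cofactors and turnover genes, 8 rose and 4 fell in LysMcre and 4 rose and 5 fell in floxed libraries. The LysMcre split turned with the scaling, to 5 higher and 12 lower with equal totals and 6 each with quantile normalization, and Trpc4ap (log2 -0.02 with equal totals) had the opposite sign and did not pass. Trrap, the scaffold that brings histone acetyltransferases to MYC, averaged 3195 ± 163 in LysMcre and 5228 ± 313 in floxed libraries with G-CSF (log2 -0.71, SE 0.06, limma adjusted p = 2.8e-07), and fell by a log2 of 0.68 more in LysMcre than in floxed cells (limma adjusted p = 3.6e-05). Huwe1, a ubiquitin ligase of MYC, rose by a log2 of 0.45 more in LysMcre cells (limma adjusted p = 0.000755).

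Of 18 PIM kinase substrates, 5 rose and 9 fell in LysMcre and 5 rose and 7 fell in floxed libraries, beside 62.6% and 48.8% of all genes called in either direction; with equal totals 3 rose and 12 fell in LysMcre libraries. Cxcr4, the chemokine receptor that keeps neutrophils in the marrow, averaged 1511 ± 80.7 normalized counts in LysMcre libraries with G-CSF and 12408 ± 410 in untreated ones (log2 -3.04, SE 0.05, limma adjusted p = 1.1e-15), and 2178 ± 88.7 in floxed libraries with G-CSF and 12348 ± 289 in untreated ones (log2 -2.50, SE 0.05, limma adjusted p = 2.04e-14). Eif4ebp1, a brake on cap-dependent translation, rose by a log2 of 1.28 in LysMcre and 1.21 in floxed libraries. Nfatc1, a calcium-regulated transcription factor, was the sole gene of these lists that differed between the untreated genotypes, at 4535 ± 191 in LysMcre and 2296 ± 104 in floxed libraries (log2 0.98, SE 0.06, limma adjusted p = 5.76e-07). In the interaction 1 of the 18 had the higher response in LysMcre cells (Cdkn1a) and 2 the lower (Cxcr4 and Bad, a death-promoting BCL2 relative). Over all tested genes 10.9% were called higher and 11.5% lower there. With equal totals 6 of the 18 were called and with quantile normalization 7. All genes called then numbered 3890 and 3151 of 13915, against 3112 in the main fit.

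**Figure D4:**
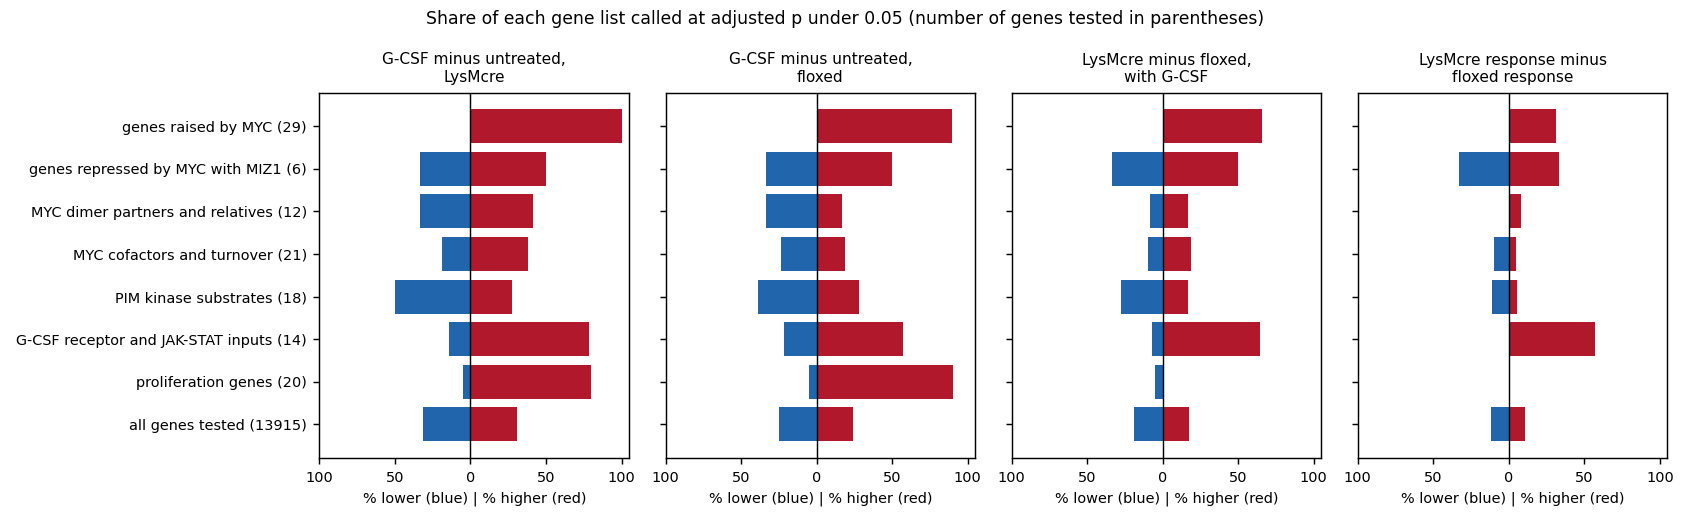
Percent of each gene list called higher (red, to the right) and lower (blue, to the left) at a limma adjusted p under 0.05 in 4 comparisons, with the number of genes tested in parentheses and all 13915 genes in the bottom row. Genes raised by MYC have calls to the right and none to the left in each panel (29, 26, 19 and 9 of 29).

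The list of 14 G-CSF receptor and JAK-STAT genes also holds the feedback inhibitors Socs1, Socs3 and Cish and the phosphatase gene Ptpn6. Of the 14, 11 rose and 2 fell in LysMcre, and 8 rose and 3 fell in floxed libraries. Over all tested genes 31.1% rose and 31.6% fell in LysMcre, and 24.1% rose and 24.6% fell in floxed libraries. Of the 11, Stat5b (log2 -0.08) and Grb2 (-0.0041) had the opposite sign and did not pass with equal totals. With quantile normalization neither these nor Ptpn6 passed and all 3 had the opposite sign. Between the genotypes with G-CSF 9 of the 14 were higher and 1 lower in LysMcre libraries, beside 17.1% and 18.9% of all genes. In the interaction 8 had the larger rise there, beside 10.9% of all genes called higher. Cish, a STAT5-induced feedback inhibitor, averaged 2456 ± 261 in LysMcre and 584 ± 41.7 in floxed libraries with G-CSF (log2 2.07, SE 0.11, limma adjusted p = 2.39e-09). Socs1 averaged 361 ± 5.53 in LysMcre and 137 ± 6.78 in floxed libraries with G-CSF (log2 1.40, SE 0.11, limma adjusted p = 1.17e-07). Jak2, the receptor-bound kinase, averaged 6911 ± 220.4 in LysMcre and 3489 ± 112 in floxed libraries with G-CSF (log2 0.99, SE 0.05, limma adjusted p = 2.89e-09).

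Of 20 proliferation genes 16 rose and 1 fell with G-CSF in LysMcre, and 18 rose and 1 fell in floxed libraries. Over all tested genes 31.1% rose and 31.6% fell in LysMcre, and 24.1% rose and 24.6% fell in floxed libraries. With equal totals 11 of the 20 rose in LysMcre and 13 in floxed libraries. Birc5 in LysMcre libraries then had the opposite sign (log2 -0.03) and did not pass. Mcm2 and Mcm4, subunits of the replicative helicase, rose by a log2 of 1.16 and 1.14 in LysMcre libraries, while Tk1, a thymidine kinase, fell by 1.17. Between the genotypes with G-CSF 0 of the 20 were higher and 1 was lower, Tk1 (log2 -0.26, limma adjusted p = 0.043), which edgeR and DESeq2 did not call (adjusted p = 0.0764 and 0.0749); edgeR called 1 gene of the list higher, Pcna (log2 0.22, adjusted p = 0.0453). In the interaction 0 of the 20 were called. Over all tested genes limma called 36% between the genotypes with G-CSF and 22.4% in the interaction. The 8 progenitor markers were all present in every group, with summed levels of 16549 to 18504 normalized counts in LysMcre and 14070 to 18517 in floxed libraries with G-CSF, and 11660 to 11896 in LysMcre and 7874 to 14129 in floxed untreated libraries. Of the 8, 3 rose (Kit, Prtn3 and Ctsg) and Myb fell in the LysMcre response, 4 rose (these and Elane) and Myb fell in the floxed response, and Kit and Cd34 were higher and Myb lower in LysMcre than in floxed libraries with G-CSF, where the median log2 difference of the list was -0.17. Kit, the stem cell factor receptor, averaged 6166 ± 185 in LysMcre and 2933 ± 181 in floxed libraries with G-CSF, and 800.1 ± 35.6 in LysMcre and 783 ± 60.8 in floxed untreated libraries. Myb averaged 795 ± 129 in LysMcre and 996 ± 33.8 in floxed libraries with G-CSF, and 1556 ± 158 in LysMcre and 1715 ± 14.6 in floxed untreated libraries. The part of these cells in the changes of Myc, its targets and the Pim genes was not tested.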

How the data were processed

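RNA was sequenced in 12 libraries of sorted bone marrow neutrophils, 3 in each of 4 groups. The authors deposited a signal unit. Its values are counts scaled by a single size factor in each library, as the values themselves show: whole reads were recovered for 100% of values within 0.01 read. Per the submitters' processing notes the genome build is mm10; how reads were aligned and counted, and on which strand, is not given in the sources used here. The design assumed normalized values, so limma stayed the main test, with count tests on the recovered reads as alternatives.

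Values were tested as log2(value + 1) in limma 3.58.1 (R 4.3.3, trended prior) with 4 groups in 1 fit (8 residual degrees of freedom). Rows with a mean under 10 were left out (20 rows), p-values are two-sided and adjusted over 13915 genes by Benjamini-Hochberg with a threshold of 0.05, and fold changes on this scale understate changes of low genes. Replicates differed beyond sampling noise, with a chi-square per gene of 3.55 to 12.9. The table's 2 columns with no sample or values were not used. One LysMcre untreated column carries the number 3 where its title says replicate 2, and the title was followed.

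The members and the 14 gene lists were chosen with earlier results of these data known. Named genes were the 10 members, up to 3 genes per list and comparison with the largest called log2 change (higher group averaging 50 or more), the 3 genes most correlated with Myc, Mxd1 and Pim1, and Socs3 and Lyz2; other genes named were chosen after their values were seen, and some genes that this rule names are not reported here. Positions come from GENCODE M21, which matched 13541 symbols and not 394. Alternatives were pseudocounts of 5 and 0.5, no filter and a filter of 50, quantile normalization, equal totals, edgeR 4.0.16, DESeq2 1.42.0, a fit to the groups compared alone, a replicate block and leaving out each library. Scripts were tested on simulated data.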

Additional observations from a re-analysis of the deposited data

Results flagged for a closer look

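For 6 genes the G-CSF response differed between the genotypes by the interaction test of limma (LysMcre response minus floxed response, 3 libraries in each of 4 groups). On the log2 scale the differences were -0.6988 for Max, -0.5626 for Mxi1 and -0.5107 for Mxd4, whose falls were larger in LysMcre cells, and 0.5604 for Pim1, 0.3846 for Mnt and 0.686 for Pim2, whose rises were larger there. Max fell by 1.12 in LysMcre and by 0.43 in floxed libraries, and Pim1 rose by 3.43 in LysMcre and 2.86 in floxed libraries. The differences for Mnt and Pim2 did not pass with equal library totals. The interaction called 22.4% of all genes tested, so a call in it is not particular to these genes.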

How the results depend on the processing

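Over the members, lists and gene counts, 1313 alternative values kept direction and side of the threshold or stayed within 1.5 times a count; 36 lost a call, 4 gained one, 15 changed sign and 10 counts moved further. The lost and gained calls of members stand beside their values above, except that of Pim3 under the replicate block, given below. No call changed sign among members; the sign changes were of differences that did not pass. In the untreated genotype comparison they were Mxd4 at 0.0055 (equal totals) and 0.0121 (without LysMcre untreated library 1), and Pim2 at 0.0449 (equal totals), 0.1753 (without floxed untreated library 3) and 0.0541 (without LysMcre untreated library 1); leaving out single libraries gave -0.083 to 0.0121 for Mxd4 and -0.1462 to 0.1753 for Pim2. In the floxed response Pim2 was -0.0196 without floxed untreated library 1 and -6e-04 without floxed G-CSF library 1. In the interaction Myc was -0.0314, Mxd1 -0.1416 and Pim3 -0.0787 with equal totals, Mxd1 was -0.1513 with quantile normalization, -0.0369 without floxed untreated library 3, -0.0046 without LysMcre untreated library 1 and -0.0178 without LysMcre G-CSF library 3, and Pim3 was -0.0049 without LysMcre untreated library 3; with single libraries left out the highest values were 0.0906 for Mxd1 and 0.1654 for Pim3. The cause was not tested.

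Genes called between the untreated genotypes numbered 16 in limma, 28 in DESeq2 and 9 to 21 when single libraries were left out (9 without floxed untreated library 1, 10 without LysMcre untreated library 1). Leaving out single libraries gave 4285 to 5030 genes and 6 to 8 members for the genotypes with G-CSF (5013 and 8 with all libraries), 6121 to 6904 genes and 7 to 8 members for the floxed response (6784 and 8), 8124 to 8847 genes and 10 members for the LysMcre response (8717 and 10), and 2669 to 3142 genes and 4 to 6 members for the interaction (3112 and 6). With equal totals the median log2 of all genes was -0.13 for the genotypes with G-CSF, -0.09 for the floxed response, -0.26 for the LysMcre response and -0.18 for the interaction, against -0.01, 0.0044, -3e-04 and -0.01 as reported; the share of calls that were higher was then 28.2% for the genotypes with G-CSF (47.5% otherwise), 38.5% for the floxed response (49.5%), 31.2% for the LysMcre response (49.6%) and 23% for the interaction (48.6%). Under equal totals 3 proliferation genes were called between the genotypes with G-CSF (1 otherwise), and 4 MYC relatives in the interaction (1 otherwise). All genes called were then 5471 between the genotypes with G-CSF (5013 otherwise) and 3890 in the interaction (3112 otherwise).

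Whether replicate numbers pair the libraries was not settled. Of 18 correlations between same-numbered libraries of different groups 4 were over 0.1 (range -0.178 to 0.321), yet 8 of 12 libraries correlated best with their own number. Between untreated and G-CSF libraries of 1 genotype, the same-number correlations were 0.321, 0.199 and 0.061 in floxed and 0.214, -0.032 and 0.030 in LysMcre libraries. The labels do not say whether libraries of 1 number share a source. With the replicate block 16, 4892, 6673, 8692 and 2967 genes were called for the untreated genotypes, the genotypes with G-CSF, the floxed response, the LysMcre response and the interaction, and among members Pim3 in the floxed response lost its call (log2 0.30, limma adjusted p = 0.0535). The intervals of Myc, Pim2 and Pim3 were the widest of the 10 genes.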

Other observations

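The genes whose pattern over the 12 libraries was most like that of a member were listed as a description, among 9747 genes with a mean of at least 50; the points share their groups and libraries, so high values of r are common. Pim1 was closest to Csf2rb, the shared receptor chain of the GM-CSF family (Pearson r = 0.9995), which averaged 78406 normalized counts in LysMcre and 54117 in floxed libraries with G-CSF, and 8723 in LysMcre and 8295 in floxed untreated libraries. Next to it were Bcl3, a nuclear co-regulator of NF-kappaB (r = 0.9995), and Arid5a, an RNA-binding protein (r = 0.9992). Myc was closest to Tmem147 (r = 0.9924), Lss, lanosterol synthase of the cholesterol pathway (r = 0.9922), and Nos2, the inducible nitric oxide synthase (r = 0.992).

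Nos2 averaged 7766 normalized counts in LysMcre and 1767 in floxed libraries with G-CSF, and 4.49 in LysMcre and 1.27 in floxed untreated libraries, where it lay near the value of 3 reads. Among the genes most like Mxd1 were Cdc25b, a phosphatase that activates cyclin-dependent kinases (r = 0.9877), and Plin5, a lipid droplet protein (r = 0.9871). Cdc25b averaged 3012 in LysMcre and 2841 in floxed libraries with G-CSF, and 678 in LysMcre and 701 in floxed untreated libraries.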
